A study of Mus musculus with 2 samples.

Results

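The genes described here are 9 regulators of the osteoblast lineage: Runx1, Runx2, Cbfb, Sp7, Dlx5, Msx1, Msx2, Twist1 and Twist2. They were chosen by name, from their known roles and with earlier results of these data known, and looked up by NCBI gene number. All 9 matched a row among the 17215 genes listed, and all 9 had a mean of at least 1 FPKM (fragments per kilobase of transcript, divided by the library's mapped fragments), the minimum for the comparison. The cells are MC3T3-E1, a clonal line of mouse calvarial pre-osteoblasts, so each result concerns 1 clone. They were grown in serum-containing alpha-MEM with formaldehyde, a reactive aldehyde that crosslinks protein and DNA, at 100 µM (1 library) or 300 µM (1 library). Neither the exposure time nor the age of the cultures is given in the labels, and untreated cells were not analysed here. With 1 library per dose there is no replicate check and no p-value, and every difference is one between a pair of libraries. The title concerns osteoblast proliferation; the question asked here is how activators and inhibitors of the osteoblast programme differ in level between the doses.

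Commitment of mesenchymal cells to bone depends on RUNX2, a Runt-domain factor that binds DNA together with its partner CBFB, and on the zinc finger factor SP7 (osterix), which acts downstream of RUNX2. The homeodomain factor DLX5 promotes this programme, and MSX2 can oppose DLX5 at shared target sites. The bHLH factors TWIST1 and TWIST2 restrain RUNX2 and mark less differentiated calvarial mesenchyme. MSX1 acts in craniofacial and tooth mesenchyme, and RUNX1, best known from blood formation, is also made by skeletal progenitors.

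Runx1 and Runx2 can each be transcribed from a distal and a proximal promoter, and their distal starts are shown because these paralogs carry a shared run of sequence there. The sequences are from RefSeq, on build GRCm38.p6, from 250 bases before the start to 50 after it, in the direction of transcription. Capitals mark the RUNX-binding hexamers TGTGGT and TGCGGT and their reverse complements ACCACA and ACCGCA, which do not overlap one another here.
Runx1, distal start, chr16:92826025-92826324, minus strand: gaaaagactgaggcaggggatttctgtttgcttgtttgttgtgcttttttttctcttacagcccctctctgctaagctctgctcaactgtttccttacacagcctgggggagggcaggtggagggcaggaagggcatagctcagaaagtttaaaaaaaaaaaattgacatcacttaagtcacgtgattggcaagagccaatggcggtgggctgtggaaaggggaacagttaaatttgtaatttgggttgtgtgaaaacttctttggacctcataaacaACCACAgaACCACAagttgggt
Runx2, distal start, chr17:44814578-44814877, minus strand: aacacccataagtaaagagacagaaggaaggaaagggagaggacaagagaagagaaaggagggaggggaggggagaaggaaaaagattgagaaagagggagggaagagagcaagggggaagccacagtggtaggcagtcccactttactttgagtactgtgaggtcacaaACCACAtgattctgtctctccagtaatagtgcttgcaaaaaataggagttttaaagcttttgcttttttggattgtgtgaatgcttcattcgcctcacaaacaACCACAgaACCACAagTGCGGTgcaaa
The Runx1 window holds hexamers that begin at positions 29 and 37, counted from 1 at the start, and the Runx2 window at positions -80, 24, 32 and 40. A run of 22 identical bases, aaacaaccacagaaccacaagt, begins at position 24 in Runx1 and 19 in Runx2. Among 32851 promoter windows this run was found in 2, those shown. A RUNX hexamer was present in 22.4% of all windows, and in 2 of the 8 windows available for 7 of the genes. The proximal Runx1 window and those of Cbfb, Msx1, Msx2, Twist1 and Twist2 held no such hexamer. The E-box CANNTG, which reads alike on both strands and which TWIST proteins bind, was present in 4 of the 8 windows and in 72.3% of all windows. Homeodomain letters (TAATTA, which is its own complement, the variant TAATTG and its complement CAATTA) were present in 1 of the 8, that of Msx2, and in 12.4% of all. Such matches describe letters and are not shown to be bound, and gene-level tables do not tell which start was used.

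Most of these regulators were lower at 300 µM than at 100 µM. Runx1, Dlx5 and Cbfb were at least 2-fold lower on the log2(FPKM + 1) scale, which understates the differences of low genes. The other 6 were within 2-fold, and 0 of 9 were at least 2-fold higher. Lower genes were common in the whole comparison: of 10123 genes, 29.9% were past 2-fold on the lower side and 6.09% on the higher side, so 3 of 9 (33.3%) is near the background on this scale; under some of the other settings given below it is not. At 300 µM 8 of the 9 values were below those at 100 µM, and Sp7 was above. Most of the genes compared were lower too, since their median log2 ratio was -0.30. In bulk RNA fewer cells of a kind and less RNA per cell cannot be told apart. The median log2 ratio of the 9 was -0.96, against -0.30 over all genes compared. Their levels summed to 191.7 FPKM at the lower dose and 78.75 FPKM at the higher. Cbfb made up 36.8% and 31.4% of these sums, Twist1 21.9% and 28.0%, Dlx5 17.2% and 8.94%, and Sp7 3.76% and 12.0%. Below, where values come in pairs, the first is that at 100 µM.

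**Figure D1:**
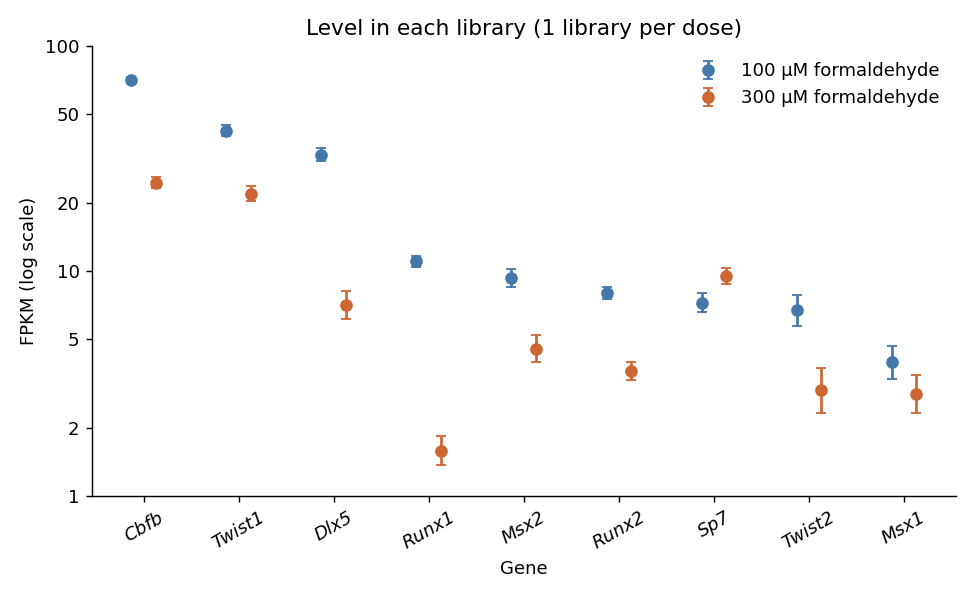
FPKM of each gene (log axis) in the library at 100 µM (blue) and at 300 µM (orange), with 95% Poisson intervals from estimated read numbers, which cover counting error only. The intervals of the doses overlap for Msx1 alone, and Sp7 is the gene whose point at 300 µM lies above that at 100 µM.

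The order of levels also differed. At 100 µM the most abundant was Cbfb, followed by Twist1 and Dlx5, then Runx1, each separated from the next by non-overlapping counting intervals. Msx2, Runx2, Sp7 and Twist2 lay between 6.70 and 9.32 FPKM, where the intervals of neighbours overlapped, and Msx1 was lowest. At 300 µM Cbfb and Twist1 were no longer separated by their intervals. Sp7 was in place 7 at 100 µM and in place 3 at 300 µM, and Runx1 in places 4 and 9. Msx2 and Runx2 overlapped at 300 µM, as did Runx2 and Twist2, and Twist2 and Msx1.

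Among the RUNX genes, Runx1 had the largest difference. Its level was 11.03 FPKM at the lower dose and 1.59 FPKM at the higher, from about 1197 and 178 reads. The level was thus 6.94-fold lower at 300 µM, with a 95% counting interval of 5.90 to 8.14. Its log2 ratio of -2.22 was undercut by 6.43% of the genes compared. Runx1 was in place 4 of the 9 genes at 100 µM and the lowest of them at 300 µM.

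Runx2, the factor without which osteoblasts do not form, stood at 7.99 FPKM and 3.60 FPKM, about 956 and 443 reads. That is 2.22-fold lower (counting interval 1.98 to 2.49), with a log2 ratio of -0.97, just within 2-fold after the pseudocount. The ratio of Runx2 to Runx1 was 0.72 at 100 µM (interval 0.66 to 0.79) and 2.26 at 300 µM (1.89 to 2.70). A ratio of FPKM between genes of one library is per length and is not altered by a rescaling of the whole library. Runx1 was therefore the more abundant of these paralogs at the lower dose and Runx2 at the higher.

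The third paralog, Runx3, is not one of the 9 and was singled out after its values were seen; it stood at 13.56 FPKM and 2.98 FPKM. The 3 RUNX genes summed to 32.58 FPKM at the lower dose and 8.17 FPKM at the higher. Runx2 made up 24.5% of that sum at the lower dose and 44.1% at the higher. Runx3 held 41.6% and 36.5%, and Runx1 33.9% and 19.5%. RUNX messages thus divided differently among the paralogs in the pair of libraries.

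Cbfb, which encodes the non-DNA-binding partner of all RUNX proteins, stood at 70.60 FPKM and 24.69 FPKM. It was 2.86-fold lower at 300 µM (counting interval 2.69 to 3.04), with a log2 ratio of -1.48. Of the genes compared, 18.4% had a lower ratio. Cbfb was the most abundant of the 9 at both doses, though at 300 µM its interval overlapped that of Twist1. The ratio of Cbfb to summed RUNX was 2.17 at 100 µM and 3.02 at 300 µM, so the partner's message exceeded that of the RUNX genes in both. Runx2 to Cbfb was 0.113 (interval 0.105 to 0.122) and 0.146 (0.131 to 0.162).

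**Figure D2:**
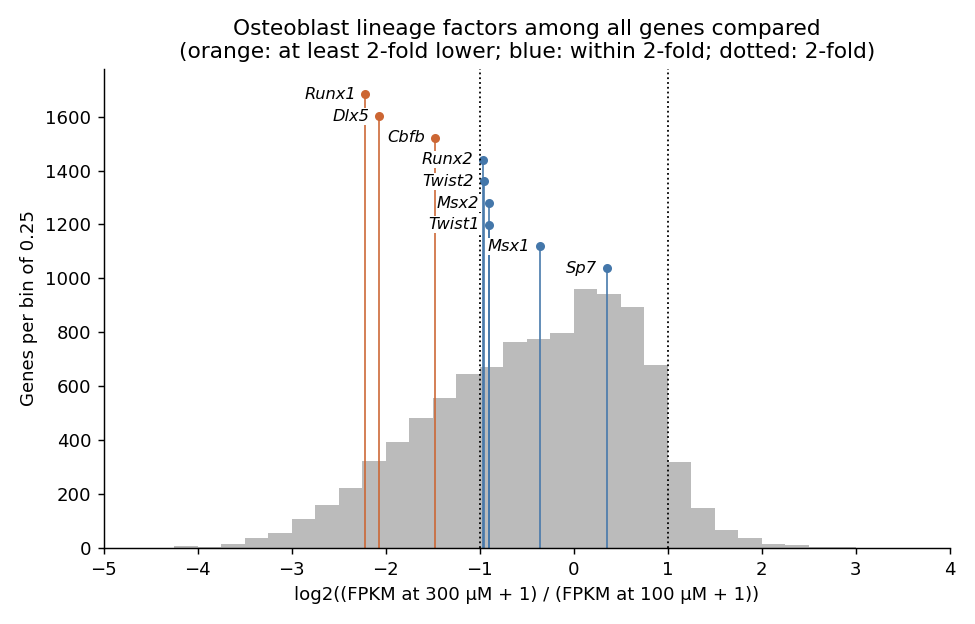
Number of genes (vertical axis, bins of 0.25) by log2 ratio (300 µM over 100 µM, pseudocount of 1), for all 10123 genes compared, with a line for each of the 9 genes. Runx1, Dlx5 and Cbfb (orange) lie beyond the 2-fold line on the lower side, and Runx2, Twist2, Msx2 and Twist1 lie between -0.97 and -0.90, just inside it.

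Sp7 and Dlx5, both activators of osteoblast genes, lay on different sides of a ratio of 1. Sp7 stood at 7.21 FPKM and 9.47 FPKM, about 414 and 559 reads, a ratio of 1.31 (counting interval 1.15 to 1.49). Its log2 ratio of 0.35 was exceeded by 26.9% of the genes compared. When both libraries were scaled to equal sums of FPKM the log2 ratio of Sp7 was 0.02. The ratio of Sp7 to Runx2, which no rescaling of a library alters, was 0.90 (0.80 to 1.02) at 100 µM and 2.63 (2.32 to 2.99) at 300 µM. Sp7 and Runx2 were thus not separated at the lower dose, and Sp7 was the more abundant at the higher. Removal of the length and GC trend does alter the change in this ratio. It was 2.49 times before and 1.84 times after, both on the log2(FPKM + 1) scale.

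Dlx5 stood at 32.88 FPKM and 7.04 FPKM, about 866 and 191 reads. It was 4.67-fold lower at 300 µM (counting interval 3.98 to 5.48), with a log2 ratio of -2.08, and 8.38% of genes had a lower one. Its neighbour in the genome and relative Dlx6 stood at 3.20 and 0.92 FPKM. The other linked pair, Dlx1 and Dlx2, stood at 12.09 and 3.38 FPKM and at 11.66 and 4.28 FPKM. These 3 paralogs, singled out after their values were seen, had log2 ratios of -1.13, -1.58 and -1.26. Dlx3 and Dlx4 were at or below 0.06 FPKM in both libraries. Dlx5 held 54.9% of summed DLX messages at 100 µM and 44.8% at 300 µM.

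Msx1 and Msx2 differed less. Msx2, an inhibitor of the osteoblast programme in several settings, stood at 9.32 FPKM and 4.52 FPKM, 2.06-fold lower at 300 µM (counting interval 1.74 to 2.44). Its log2 ratio was -0.90. Msx1 stood at 3.93 FPKM and 2.84 FPKM, from about 141 and 105 reads, 1.38-fold lower at 300 µM (1.07 to 1.80). The log2 ratio of Msx1, -0.36, was close to the median gene, with 48.2% of genes below it. The third paralog, Msx3, was at 0.02 FPKM in both libraries.

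DLX5 and MSX proteins recognise similar sites, so their relative messages were compared within each library. The ratio of Dlx5 to Msx2 was 3.53 at 100 µM (interval 3.14 to 3.97) and 1.56 at 300 µM (1.28 to 1.91). Dlx5 to Msx1 was 8.37 (6.98 to 10.1) and 2.48 (1.94 to 3.17). Dlx5 remained the most abundant of the 3 at both doses, by a smaller margin at the higher.

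The TWIST genes were lower by similar amounts. Twist1 stood at 42.05 FPKM and 22.04 FPKM, about 1268 and 683 reads, 1.91-fold lower at 300 µM (counting interval 1.74 to 2.10). Twist2 stood at 6.70 FPKM and 2.96 FPKM, about 165 and 75 reads, 2.26-fold lower (1.71 to 3.01). Their log2 ratios were -0.90 and -0.96. The ratio of Twist1 to Twist2 was 6.28 (5.33 to 7.42) and 7.45 (5.85 to 9.57). Its value at 300 µM was 1.19 times that at 100 µM, with a counting interval of 0.88 to 1.60 that includes 1. Runx2 to Twist1, an activator against its inhibitor, was 0.190 (0.174 to 0.207) and 0.163 (0.145 to 0.184). That is a change to 0.86 times, with a counting interval of 0.74 to 0.998, just short of 1. The direction of this last change turned when the length and GC trend was removed, to 1.71 times (0.96 times before, both on the log2(FPKM + 1) scale).

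**Figure D3:**
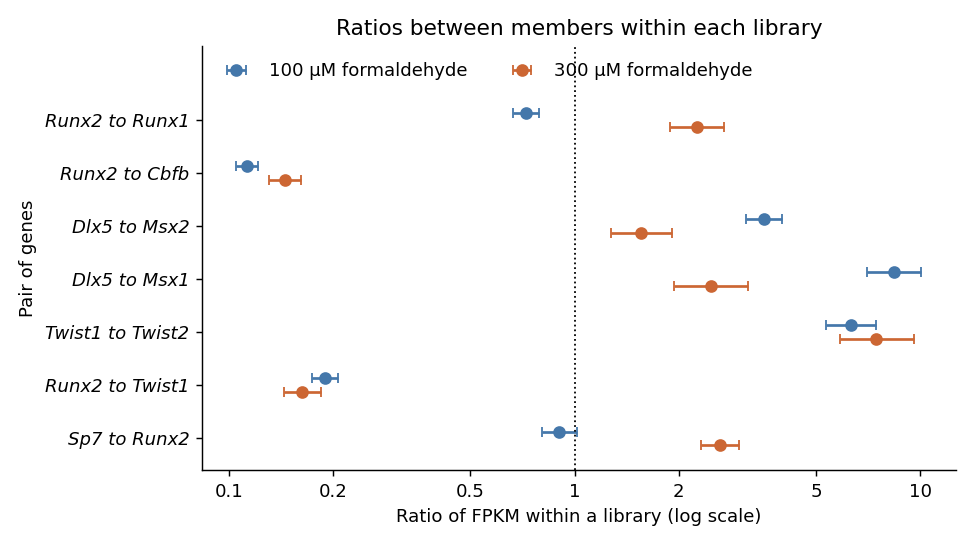
Ratio of FPKM of one gene to another within a library (log axis) for 7 pairs, at 100 µM (blue) and 300 µM (orange), with 95% intervals for counting error only. The intervals of the doses are apart for 5 pairs and overlap for Twist1 to Twist2 and Runx2 to Twist1, and Runx2 to Runx1 and Sp7 to Runx2 lie above 1 at 300 µM.

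Taking the genes by role, Runx1, Runx2, Cbfb, Sp7 and Dlx5 (activators) summed to 129.7 FPKM and 46.39 FPKM. Msx2, Twist1 and Twist2 (inhibitors) summed to 58.07 and 29.52 FPKM. The activators' sum at 300 µM was 35.8% of that at 100 µM, and the inhibitors' was 50.8%. The ratio of the sums was 2.23 and 1.57 with Cbfb, the most abundant, and 1.02 and 0.74 without it. Without Cbfb the activators summed to 59.11 and 21.70 FPKM, of which Dlx5 alone held 32.88 and 7.04. The ratio was thus lower at 300 µM both with Cbfb and without it. Its fall may still rest on Dlx5, and no ratio without Dlx5 was computed. The activators then left, Runx1, Runx2 and Sp7, stood at 11.03, 7.99 and 7.21 FPKM at 100 µM. At 300 µM they stood at 1.59, 3.60 and 9.47 FPKM. Of the 5 activators 3 were at least 2-fold lower, and of the 3 inhibitors 0, set beside 29.9% of all genes. The inhibitors' log2 ratios, between -0.96 and -0.90, lay just inside 2-fold: 2 of 3 passed with a pseudocount of 0.1 and 2 with the length and GC trend removed, and 3 of 3 at equal sums. Whether activators and inhibitors differ could not be tested with 1 library per dose.

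The counts depend on the scale. With a pseudocount of 0.1, Runx2, Twist2 and Msx2 also passed 2-fold, which made 6 of 9 (66.7%) lower, against 33.8% of all genes lower and 8.24% higher. At equal sums 7 of 9 (77.8%) were lower, against 38.0% of all genes, and at a threshold of 1.5-fold 7 of 9, against 41.6%. With a pseudocount of 5, 3 of 9 were lower, against 16.1%. After centring on the median gene, 3 of 9 were lower and 0 higher, against 22.3% and 14.5% of all genes. Of all genes past 2-fold, 83.1% were lower as deposited, 60.6% after centring, 56.9% with a TMM factor and 94.6% at equal sums. Runx1, Dlx5 and Cbfb were beyond 2-fold on the lower side, and Sp7 above 0, under each of these scalings.

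**Figure D4:**
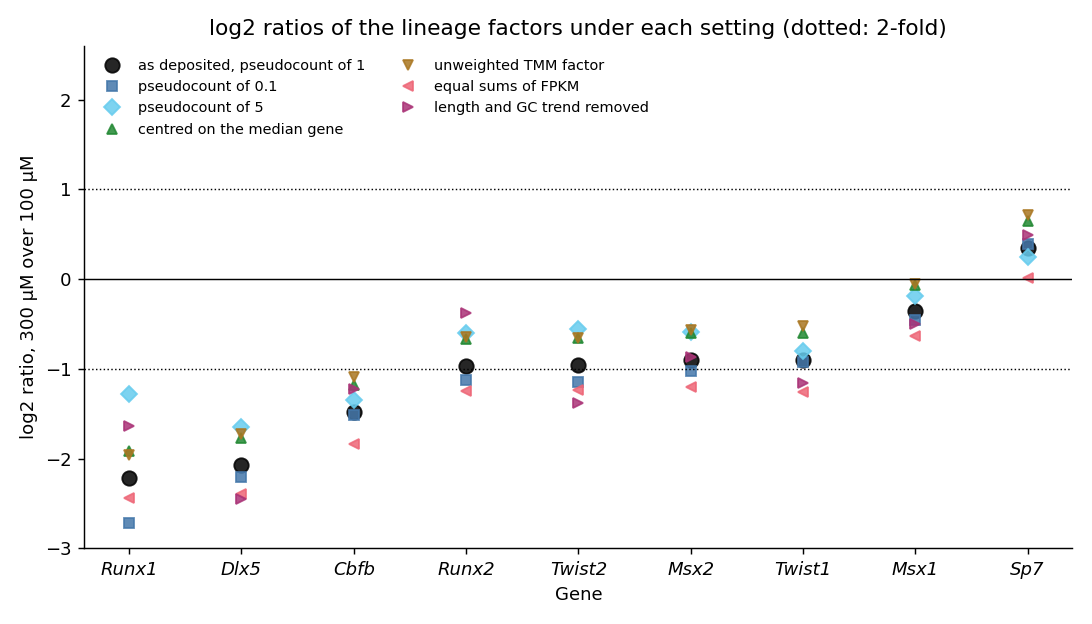
log2 ratio (300 µM over 100 µM) of each of the 9 genes under 7 settings of pseudocount and scaling. Runx1, Dlx5 and Cbfb stay below -1 under all 7, Sp7 stays above 0, and Runx2, Twist2, Msx2 and Twist1 lie on either side of -1.

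Transcript length and composition moved with the ratios over all genes. The quartile of genes with the longest transcripts (at least 4474 bases) had -0.94 as its median log2 ratio, and 47.6% of it was past 2-fold on the lower side. The quartile with the shortest (up to 1922 bases) had 0.40, and 11.8% of it was past 2-fold on that side. Runx1 (5861 bases) and Runx2 (6463 bases) belong to the longest quartile, and Dlx5 (1423), Twist1 (1628) and Twist2 (1329) to the shortest. With the trend in length and GC content removed, the log2 ratio was -1.63 for Runx1, -0.38 for Runx2, -2.46 for Dlx5 and -1.23 for Cbfb. Twist1 and Twist2 then passed 2-fold, at -1.15 and -1.38, so 5 of 9 (55.6%) were lower, against 23.1% of all genes. Removing this trend thus moved Dlx5 further from 0 and Runx2 closer to it. How far length or composition accounts for any of these differences was not tested.

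Other features differed widely among the 9. Their 3' UTRs ran from 354 bases (Dlx5) to 4189 bases (Runx1). The pentamer ATTTA, part of AU-rich elements, occurred 14 times in the 3' UTR of Runx1, 9 times in that of Runx2 and 0 times in that of Dlx5, against a median of 1 over all genes compared. Genes with at least 5 such pentamers had a median log2 ratio of -0.87, and those with at most 1 had 0.05. The quartile with the longest 3' UTRs had -0.91, and whether pentamers matter apart from length was not tested. Runx1 has the most of these pentamers among the 9 genes and Dlx5 the fewest.

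Reads could be shared with overlapping genes. The counting is not stated to use strand, so reads of an antisense gene cannot be told apart from those of its partner. Annotated exons of antisense genes overlap Runx2 by 519 bases (Runx2os1), Runx1 by 106 and Twist2 by 1477, so these 3 levels are uncertain to that extent. The coding gene Supt3 lies across Runx2 on the opposite strand, with 0 exonic bases in common, and stood at 3.47 and 17.96 FPKM. Read numbers and their intervals rest on 1 transcript per gene, the longest for Runx1 and Runx2, whose annotated coding transcripts run from 336 to 5861 and from 440 to 6463 bases. For Twist2 it is that of 1329 bases, the other having 2525, and shorter transcripts in use would give fewer reads and wider intervals. Sequence shared with other transcripts was small, at most 0.67% of 50-base words (Runx2) in any of the 9.

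Genes with the most similar pair of values were sought by distance in log2(FPKM + 1) over the 2 libraries, for the 2 genes with the largest log2 ratio in either direction. Nearest to Runx1 were Nktr (10.95 and 1.60 FPKM), Tmem41a (10.88 and 1.62) and the death receptor gene Fas (11.19 and 1.55). Among the nearest to Dlx5 were Topors (33.53 and 7.36) and Max (32.60 and 7.40). Over 2 libraries such likeness is a match of levels only, and 22 genes lay within 0.1 of Runx1 and 8 within 0.1 of Dlx5.

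Genes of proteins that work with RUNX factors were mostly within 2-fold or lower. Of 26 cofactors, co-repressors and turnover factors, 21 reached the minimum. Of these 8 were at least 2-fold lower (38.1%, against 29.9% of all genes) and 0 higher, with a median log2 ratio of -0.56. The lowest ratios were those of the histone acetyltransferase genes Ep300, at 11.57 and 0.72 FPKM, and Kat6a, at 10.06 and 0.71 FPKM. Ep300 and Kat6a, like others of the 8, lay below 1 FPKM at 300 µM and reached the minimum through their level at 100 µM. Hipk3, a nuclear kinase gene, stood at 15.97 and 2.72 FPKM. The most abundant were Tle5, a short Groucho-family member, at 175.5 and 339.3 FPKM, and Stub1, a ubiquitin ligase gene, at 83.92 and 139.97 FPKM. Tle5 and Stub1 were within 2-fold, at 0.95 and 0.73. After centring or with a TMM factor 3 and 4 cofactors were higher, against 14.5% and 17.1% of all genes. With a minimum mean of 10 FPKM, 1 of 8 cofactors was lower, against 21.4% of all genes. Transcripts of Ep300 and Kat6a are 9566 and 9113 bases long.

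Other transcription factors of skeletal mesenchyme were mostly lower. Of 46 in the list, 43 matched a listed gene and 30 reached the minimum. Of these, 20 were at least 2-fold lower (66.7%, against 29.9% of all genes) and 1 higher (3.3%, against 6.09%). Their median was -1.28. Some of the 20, such as Dlx6, lay below 1 FPKM at 300 µM and reached the minimum through their level at 100 µM. Tbx3, a T-box factor gene, stood at 18.04 and 1.44 FPKM, Sox4 at 35.27 and 3.72 FPKM, and the forkhead gene Foxc2 at 17.08 and 1.70 FPKM. The gene higher was the homeobox gene Prrx2, at 62.62 and 144.4 FPKM, a call that was lost at equal sums and with the length and GC trend removed. The stress-induced factor gene Atf4, which also serves osteoblasts, was the most abundant, at 167.6 and 293.5 FPKM, within 2-fold, and past it after centring or with a TMM factor. With a pseudocount of 5, 10 of the 30 were lower, against 16.1% of all genes.

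Genes of dimer partners and antagonists of TWIST were higher or within 2-fold. Of 7 E protein and ID protein genes, 3 were at least 2-fold higher (42.9%, against 6.09% of all genes) and 0 lower, with a median of 0.47. Id3 stood at 51.57 and 173.7 FPKM and Id1 at 23.30 and 64.66 FPKM. They encode HLH proteins without a DNA-binding region, which take E proteins away from bHLH factors. Tcf12, an E protein gene, stood at 6.43 and 15.82 FPKM. The ratio of summed ID genes to summed TWIST genes was 2.59 at 100 µM and 12.3 at 300 µM. Id2 stood at 24.30 and 34.03 FPKM and Id4 at 26.97 and 33.99 FPKM, within 2-fold. Tcf4, another E protein gene, was on the lower side, at 5.34 and 2.69 FPKM, and was at least 2-fold lower at equal sums, while its ratio turned to 0.12 with the length and GC trend removed. Id3 was past 2-fold under each pseudocount and scaling tried, Id1 in all but the removal of that trend (0.74), and Tcf12 in all but a pseudocount of 5 (0.87) and equal sums (0.83).

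Genes of the inputs to these factors, BMP, FGF and hedgehog signalling, were lower or within 2-fold. Of 24, 15 reached the minimum, with a median of -1.01. Of these, 8 were at least 2-fold lower (53.3%, against 29.9% of all genes) and 0 higher (against 6.09%). Smad1, a transducer of BMP signals, stood at 11.72 and 1.35 FPKM, and the inhibitor gene Smad7 at 17.89 and 3.43 FPKM. The growth factor gene Fgf2 stood at 6.13 and 0.08 FPKM. It was near the floor at 300 µM and reached the minimum through its level at 100 µM alone. Bmpr2 (5.50 and 0.75 FPKM) and Ptch1 (1.97 and 0.18 FPKM), named here for this reason, also lay below 1 FPKM at 300 µM. The abundant receptor genes Smo and Fgfr1 were within 2-fold, at 61.51 and 66.51 FPKM and at 38.43 and 25.68 FPKM. With the length and GC trend removed, 4 of the 15 were lower, against 23.1% of all genes. The ligand gene Bmp4, named here because a count of higher genes rests on it, stood at 10.05 and 20.22 FPKM and was higher with a pseudocount of 0.1, after centring and with a TMM factor.

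**Figure D5:**
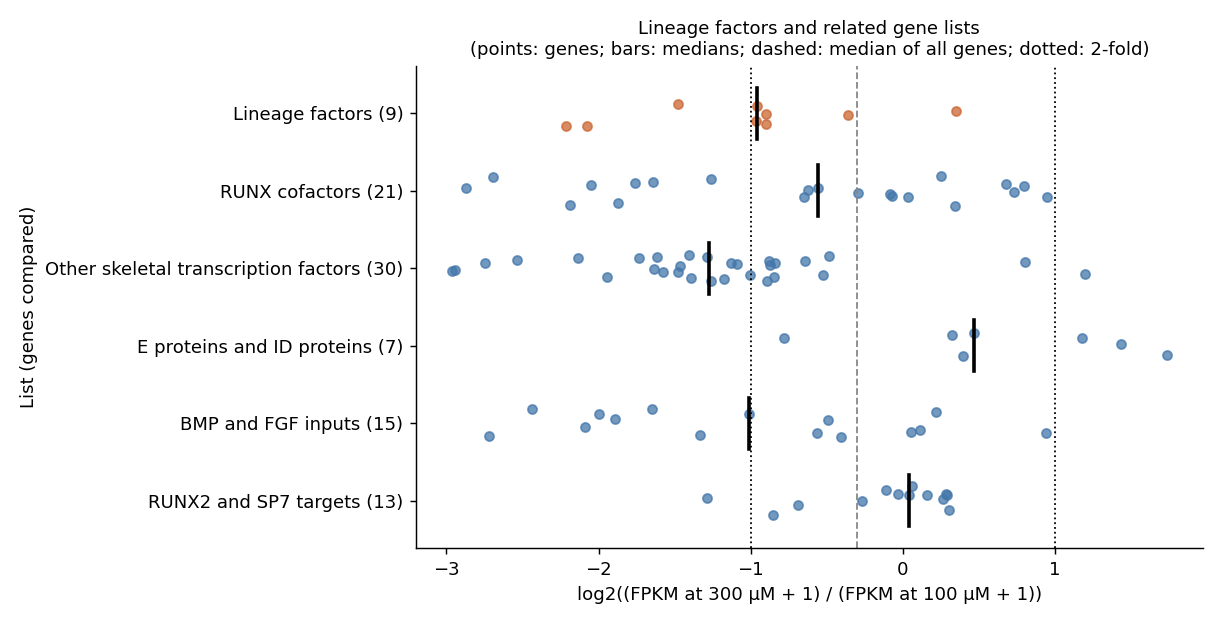
log2 ratio (horizontal axis, log2 of FPKM + 1, 300 µM over 100 µM) of the 9 genes (orange) and of each gene of 5 related lists (blue), with list medians as bars. Medians run from -1.28 (other skeletal transcription factors) to 0.47 (E proteins and ID proteins), and that of the 9 genes is -0.96.

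Bone matrix and mineralisation genes known as targets of RUNX2 or SP7 were mostly within 2-fold where they reached the minimum. Of 18, 13 reached the minimum, and 1 was at least 2-fold lower (7.7%, against 29.9% of all genes) and 0 higher (against 6.09%). Their median log2 ratio was 0.04. The lower one was Tnfrsf11b, which encodes the osteoclast inhibitor osteoprotegerin and was within 2-fold after centring. The lower count was 2 with a pseudocount of 0.1 (against 33.8% of all genes), 3 at equal sums (38.0%) and 0 after centring (22.3%). Dmp1, named here because these counts rest on it, stood at 2.24 and 0.79 FPKM. Alpl (0.98 and 1.06 FPKM) and Ibsp (1.83 and 1.77 FPKM), named here for their low levels, were close to the minimum. The osteocalcin genes Bglap (0 and 0.49 FPKM) and Bglap2 (0.48 and 0.15 FPKM), named for the same reason, were below it. For such low genes the pseudocount of 1 understates a difference. Collagen I genes, the most abundant of the list, had log2 ratios of -0.27 (Col1a1) and -0.11 (Col1a2), signs that flip after centring. Whether target genes and the 9 regulators differ was not tested.

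The cell type labels were checked against markers. All 8 genes of calvarial osteoblasts and mesenchyme reached the minimum, led by Vim at 3608 and 4595 FPKM. This list covers osteoblasts and mesenchyme together and does not separate them. Of the target genes above, Alpl, Ibsp, Bglap and Bglap2 were at or below 1.83 FPKM in both libraries. Spp1, in this list and among the targets, stood at 253.4 and 312.9 FPKM. Markers of endothelium summed to 0.16 and 0.10 FPKM over 5 genes, led by Pecam1. Blood and osteoclast markers summed to 47.70 and 45.36 FPKM, of which Ctsk held 41.20 and 44.36, while Spi1, Adgre1 and Acp5 were listed at 0 in both. Muscle markers summed to 3.62 and 10.59 FPKM, mostly Acta1, with Myog and Myf5 at 0. Adipocyte markers summed to 5.47 and 2.09 FPKM, mostly Cebpa, with Fabp4 and Plin1 at 0. Epithelial markers summed to 8.52 and 7.26 FPKM, mostly Krt14, with Epcam at 0. The osteocyte list summed to 86.89 and 17.48 FPKM, of which Pdpn held 84.49 and 16.57, with Sost at 0. Chondrocyte markers summed to 322.3 and 351.2 FPKM, of which Col2a1 held 321.7 and 350.1, with Acan at 0. Their part in the results was not tested.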

How the data were processed

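RNA sequencing of MC3T3-E1 cells gave 1 gene-level table per dose. The authors deposited FPKM values, per the file headers, with 2 decimals. The submitters' processing notes name Bowtie2 and RSEM and give no version. The genome build, like the strand setting, is not given in the sources used here. FPKM depends on a library's total and on how reads are divided among isoforms. Symbols were found for 17185 of the 17215 gene numbers, 17179 of them in RefSeq (GRCm38.p6) and the rest in GENCODE M21. Transcript length, GC content, 3' UTRs and overlaps came from GENCODE M21, from 1 transcript per gene, the longest coding one with a RefSeq match where available; 10093 of the 10123 genes compared had them.

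From the deposited values, log2 ratios of 300 µM over 100 µM were computed after adding a pseudocount of 1, over genes whose mean reached 1 FPKM. A gene can reach this mean through 1 dose alone, so some genes counted as lower lay below 1 FPKM at 300 µM. Genes at or beyond 2-fold were counted. Depth was read from low values of genes with 1 transcript of 500 to 1300 bases: at 100 µM, FPKM times length came within 0.12 of a whole multiple of 54.0 bases for 63.4% of 123 values, and at 300 µM, of 52.5 bases for 71.9% of 89, the best of steps from 40 to 70. Steps further away from these reached up to 41.3% and 43.0%, and evenly spread values would give 24.0%. Steps close to the chosen ones were left out of this comparison, so it does not show how sharply each step is fixed. This corresponds to about 18500000 and 19000000 fragments. Reads per gene were estimated from these steps, and 95% intervals are exact Poisson (levels) or Clopper-Pearson (ratios). Without molecular identifiers, reads cannot be taken as independent molecules, so the intervals cover counting error only.

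Of the 17215 genes, 10206 and 9332 reached 1 FPKM at 100 and 300 µM, and 2961 and 3391 were listed at 0. On simulated data (10206 genes), all 50 genes changed 3-fold and all 50 changed 4-fold in each direction were recovered, and 0 of 10006 unchanged ones passed. Both simulated libraries were drawn from the levels at 100 µM with counting error alone. The changed genes were well expressed, and their folds lay beyond the 2-fold limit. The run thus checks the calculation only and gives no rate of false calls for the real pair.

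The 9 genes, the 5 related lists and the 8 marker lists were chosen with earlier results of these data known. Named from each related list are up to 3 genes with the largest ratios past 2-fold in each direction and the 2 most abundant; from each marker list, the most abundant; and for Runx1 and Dlx5, the 3 nearest genes by level. A gene taken by this rule is not reported here. Genes named outside this rule are said to be so or are given for an overlap, a family sum or a marker listed at 0. Alternatives were pseudocounts of 0.1 and 5, centring, an unweighted TMM factor, equal sums, removal of the length and GC trend, other minimum levels and other thresholds. Software was Python 3.11.15, with matplotlib 3.10.9, scipy 1.17.1, pandas 2.3.3 and numpy 2.4.6.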

Additional observations from a re-analysis of the deposited data

How the results depend on the processing

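With 1 library per dose no replicate could be left out, and no paired analysis was possible because each dose has 1 library. The number of the 9 genes at least 2-fold lower was 3, and became 6 with a pseudocount of 0.1, 7 at equal sums, 5 with the length and GC trend removed and 7 at a threshold of 1.5-fold, against 33.8%, 38.0%, 23.1% and 41.6% of all genes. With a minimum mean of 10 FPKM, 3 of the 9 were compared, of which 2 were lower, against 21.4% of all genes. The number at least 2-fold higher was 0 under all 10 alternatives. Over the 5 related lists together, 37 of 86 compared genes were lower and 4 higher, against 29.9% and 6.09% of all genes. The lower count was 22 of 86 with a pseudocount of 5, against 16.1% of all genes. It was 9 of 38 at a mean of at least 10 FPKM, against 21.4%, and 22 of 86 at 3-fold, against 16.3%. The higher count was 9 after centring, 10 with the TMM factor, 2 at equal sums, 10 at 1.5-fold and 1 at 3-fold. Of all genes, 14.5%, 17.1%, 2.2%, 18.8% and 1.2% were higher under these settings. The log2 ratios of the 9 genes kept their sign under the alternatives, Msx1 between -0.63 and -0.06 and Sp7 between 0.02 and 0.72. Runx1 ranged from -2.72 to -1.28, Dlx5 from -2.46 to -1.65, Cbfb from -1.84 to -1.09 and Runx2 from -1.25 to -0.38. Depth limits Msx1 and Twist2 most, with 105 and 75 estimated reads at 300 µM, and the absence of replicates limits every difference.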
